A study of Homo sapiens with 6 samples.

Results

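The tubulin isotypes described here are 10 genes that encode the alpha, beta and gamma tubulins of human cells: TUBA1A, TUBA1B, TUBA1C, TUBB, TUBB2A, TUBB2B, TUBB3, TUBB4B, TUBB6 and TUBG1. They were chosen by name, as the rows of these genes in a count table of 60676 gene IDs. The choice was made with earlier results of these data known, so isotype shares set against all genes are descriptions only. Of the 10 genes, 9 passed the filter on low counts that 15546 genes passed in all, and TUBB3 did not. RNA was measured after pulldown from HEK 293 lysate with 2 baits bound to glutathione resin: GST alone (3 libraries, the control) and GST-Ferry (3 libraries). HEK 293, an established line from human embryonic kidney, was kept in suspension culture, and the resin was left in the lysate for 1.5 h in both groups. FERRY is a complex of 5 proteins (TBCK, PPP1R21, C12orf4, CRYZL1 and GATD1) that binds the early endosome GTPase Rab5 and mRNA, and the series was set up as a screen for RNAs that associate with it. Libraries of the starting lysate were not analysed here: each value sets one bait against the other and is relative to the total of its library. The labels do not say that the 3 libraries of a bait came from separate lysates, so p-values reflect no more than the spread between the libraries at hand, which may be technical.

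Microtubules are built from heterodimers of alpha and beta tubulin, while gamma tubulin sits in ring complexes that seed new microtubules at centrosomes. Newly made alpha and beta chains are folded by the chaperonin TRiC and by dedicated cofactors before they pair. Cells adjust alpha and beta tubulin mRNA to the amount of free tubulin: the factor TTC5 recognises the first residues of the nascent chain on the ribosome, and the mRNA is then degraded. The first 30 coding bases of the 10 genes are shown because their first 4 codons, in capitals, encode that recognised start in alpha and beta tubulins. All were read 5′ to 3′ from GENCODE release 29 transcripts.
TUBA1A: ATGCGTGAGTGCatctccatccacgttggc
TUBA1B: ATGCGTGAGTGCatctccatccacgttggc
TUBA1C: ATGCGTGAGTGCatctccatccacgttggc
TUBB: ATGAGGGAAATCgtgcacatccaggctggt
TUBB2A: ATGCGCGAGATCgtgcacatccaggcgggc
TUBB2B: ATGCGTGAGATCgtgcacatccaggcgggc
TUBB3: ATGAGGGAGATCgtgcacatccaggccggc
TUBB4B: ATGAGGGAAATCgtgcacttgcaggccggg
TUBB6: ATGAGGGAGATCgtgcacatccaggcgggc
TUBG1: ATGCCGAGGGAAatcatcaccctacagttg
The 3 alpha genes have the same 30 bases. The beta genes differ from each other within the capitals in the codons used, with TUBB and TUBB4B alike and TUBB3 and TUBB6 alike. TUBG1 opens with other codons than both classes.

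The isotypes are also close in sequence further along, which bears on how well counts tell them apart. Over the coding sequence, identity was 97.2% between TUBA1A and TUBA1B, 95.9% between TUBA1A and TUBA1C, 96.8% between TUBA1B and TUBA1C, and 98.2% between TUBB2A and TUBB2B. TUBB was 80.9% to 84.7% identical to the other beta genes. The last 60 coding bases before the stop codon, which encode the acidic tail that most distinguishes tubulin isotypes, are shown for TUBB2A and TUBB2B, the closest pair, with the differing base in capitals.
TUBB2A: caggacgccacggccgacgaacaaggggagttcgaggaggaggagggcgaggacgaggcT
TUBB2B: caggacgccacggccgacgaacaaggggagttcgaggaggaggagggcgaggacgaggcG
The tails of TUBB2A and TUBB2B differed at 1 of these bases. Of all 50-base stretches of the representative transcript, the share found in no transcript of another gene, in either orientation, was 12.9% for TUBA1B, 34.5% for TUBB2A, 48.2% for TUBA1A, 47.8% for TUBB2B, 59.9% for TUBA1C, 69.3% for TUBB, 69.7% for TUBG1, 85.4% for TUBB4B and 99.0% for TUBB6. For TUBB3 it was 10.6%, because a readthrough gene, AC092143.1, holds 89.4% of its stretches. AC092143.1 was listed at 0 counts in every library. Values of the alpha isotypes, of TUBB2A against TUBB2B, and of TUBB3 are uncertain to the extent that reads matching several genes were divided or dropped, which the sources used here do not describe.

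Library totals ran from 7390346 to 10466520 counts for GST and from 2454538 to 6532665 for GST-Ferry, so the GST-Ferry libraries were shallower. A floor of 3 counts stood at 0.273 to 1.31 CPM (read counts normalised to a common library total), which covers counting error only. The libraries of a bait were not alike: the transcripts of the bait subunits took 0.0359% to 0.0504% of counts with GST and 0.249%, 2.72% and 5.35% with GST-Ferry 1, 2 and 3, and GST 3 differed more from GST 1 and GST 2 than these did from each other (chi-square per degree of freedom 57.4 and 53.3 against 12.2). Of the 5 bait subunits, PPP1R21, C12orf4 and TBCK rose (log2 fold changes 8.83, 6.73 and 5.30, adjusted p 0.0111 for each by edgeR), and CRYZL1 and GATD1 had -0.50 and 0.12 (adjusted p 0.248 and 0.808). The median of all 5 was 5.30. With the 5 subunits removed from the table, TUBG1 remained the 1 isotype called, at a log2 fold change of 1.29. Markers of HEK 293 cells were detected, with VIM, an intermediate filament gene, the most abundant (716 ± 111 CPM with GST and 1117 ± 207 with GST-Ferry, SD, n = 3, adjusted p 0.151 by edgeR). All 8 markers had a log2 fold change above 0 (median 0.82), and 1 was called, the keratin KRT18 (1.18 ± 0.22 SE, adjusted p 0.0427). None of the 6 markers of other cell types passed the filter: CD3E and HBB were at 0 counts throughout, PTPRC reached 2 counts, ALB 4, PECAM1 4 and COL1A2 12 in the library where each was highest.

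Tubulin mRNA was more abundant in the GST-Ferry pulldowns than in the GST pulldowns for all 9 tested isotypes, by 1.49-fold to 2.45-fold, but only TUBG1 passed the test over all genes. The 10 genes together took 0.266%, 0.230% and 0.241% of all counts in the GST libraries and 0.384%, 0.437% and 0.407% in the GST-Ferry libraries. With the GST mean of each isotype as zero, the mean log2 CPM of the 9 isotypes was 0.13, -0.11 and -0.02 in GST 1, 2 and 3 and 0.69, 1.02 and 0.86 in GST-Ferry 1, 2 and 3. The groups did not overlap. Within the GST-Ferry group, GST-Ferry 2 was highest and GST-Ferry 1 lowest, while bait transcripts were highest in GST-Ferry 3 and lowest in GST-Ferry 1. The median log2 fold change (log2 of GST-Ferry over GST) of the 9 isotypes was 0.79, or 1.73-fold, against -0.03 over all 15546 genes, of which 47.8% were above 0. The isotype with the lowest log2 fold change stood at the 89.7th percentile of all genes.

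Genes are called enriched or depleted at an adjusted p under 0.05, from the quasi-likelihood test of edgeR after Benjamini-Hochberg adjustment over all 15546 genes. By this rule 1 of the 9 isotypes was enriched, where 0.592% of all genes were (92), and 0 were depleted, where 0.0322% were (5). At an unadjusted p under 0.05, 9 of 9 isotypes were higher with GST-Ferry and 0 lower, against 11.3% of all genes higher. In 8 of the 9 every GST-Ferry library lay above every GST library, against 14.9% of all genes. The exception was TUBA1B. Limma-voom called 0 of the 9, and DESeq2 called 6, namely TUBA1A, TUBA1C, TUBB, TUBB4B, TUBB6 and TUBG1, against 3.37% of all genes by that tool. With GST 3 and GST-Ferry 1 left out, edgeR called 9 of 9 enriched, against 11.5% of all genes in that fit. These were the libraries least like the others of their bait (for GST-Ferry 1, chi-square per degree of freedom 17.4 and 26.2 against 4.85). Leaving them out narrows the spread within each bait, so this count is no independent support. With GST 3 alone left out edgeR called 8 of 9, against 701 of 15765 genes enriched in that fit. TUBB2A was the exception, at an adjusted p of 0.0808. The calls over all genes moved with single libraries too: 701 genes were enriched without GST 3, 3 each without GST 2 and without GST-Ferry 3, and 0 without GST-Ferry 2, where 910 were higher at an unadjusted p under 0.05.

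**Figure D1:**
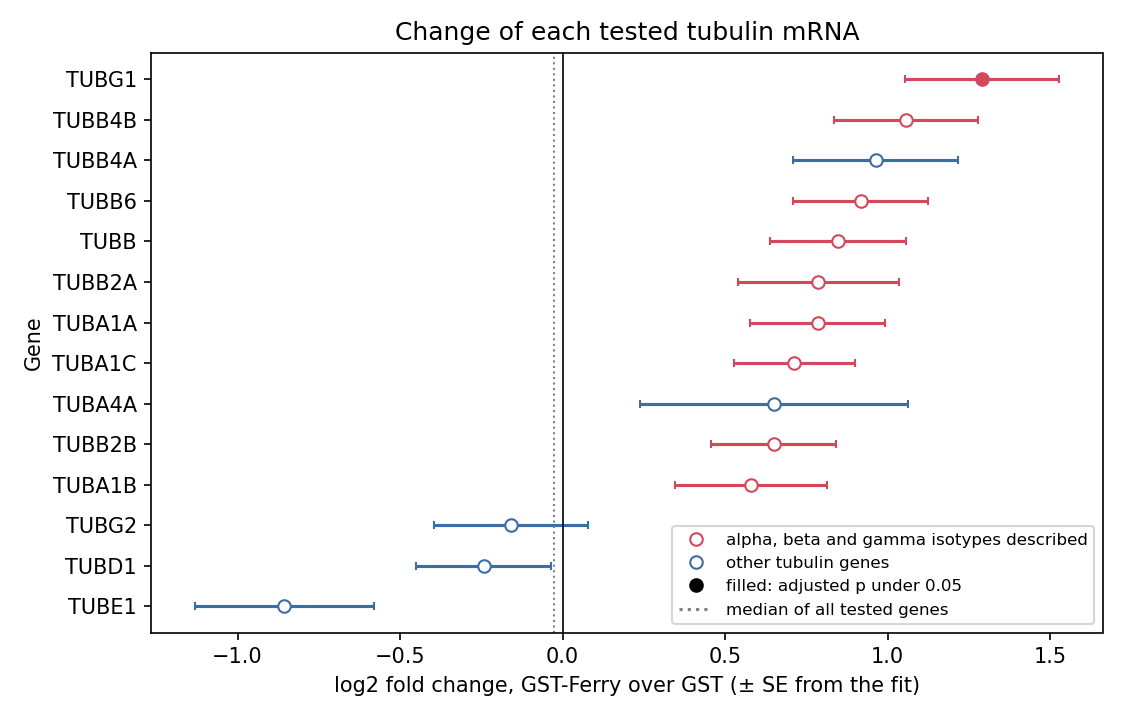
Log2 fold change of GST-Ferry over GST (x axis, points with bars of ± 1 SE from the edgeR fit) for each tested tubulin gene (y axis). Red points are the 9 tested isotypes described here and blue points the 5 other tested tubulin genes, a filled point has an adjusted p under 0.05, and the dotted line is the median of all tested genes at -0.03. All red points lie to the right of zero, between 0.58 and 1.29, and TUBG1 alone is filled.

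The alpha tubulin genes lie together on chromosome 12, and TUBA1B supplied most of their counts. TUBA1B (chr12:49127782-49131397, minus strand, GRCh38), the main alpha isotype of dividing cells, was at 527, 500 and 828 CPM in the GST libraries and 812, 1029 and 933 CPM in the GST-Ferry libraries. GST 3 stood above GST-Ferry 1, so the groups overlapped, and the log2 fold change of 0.58 ± 0.23 (SE) did not pass the test (adjusted p 0.205 by edgeR). Without GST 3 it was 0.82, with an adjusted p of 0.0220 by edgeR. With any other single library left out it was 0.43 to 0.67, and edgeR's adjusted p ran from 0.207 to 0.577. TUBA1A (chr12:49184796-49189324, minus strand), known as the predominant alpha isotype of developing neurons, was at 86.0, 67.3 and 103 CPM with GST and 132, 150 and 160 CPM with GST-Ferry. Its groups did not overlap, with a log2 fold change of 0.78 ± 0.21 and an adjusted p of 0.0885 by edgeR. TUBA1C (chr12:49188736-49274603, plus strand), a further alpha isotype found in many tissues, was at 90.5, 78.1 and 96.5 CPM with GST and 140, 151 and 144 CPM with GST-Ferry. The groups were again apart, at 0.71 ± 0.19 and an adjusted p of 0.0835 by edgeR.

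Summing the alpha isotypes avoids the question of how reads were divided between them, though not that of reads dropped because they match several genes. Their sum was 792 ± 206 CPM (SD, n = 3) with GST and 1217 ± 125 CPM with GST-Ferry, 1.54-fold higher. Counted as 1 gene, the sum had a log2 fold change of 0.62 ± 0.23 and an adjusted p of 0.175 by edgeR. It was 704, 645 and 1027 CPM in GST 1, 2 and 3, so GST 3 was high, and 1083, 1329 and 1237 CPM in GST-Ferry 1, 2 and 3. An antisense gene, AC011603.2, covers the whole of TUBA1B and holds 68.7% of its 50-base stretches. It had 79, 85 and 48 counts with GST and 46, 15 and 17 with GST-Ferry, few beside the TUBA1B counts, and TUBA1A and TUBA1C overlap each other by 589 bases on opposite strands.

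Of the 6 beta isotypes 5 were tested, and all 5 had groups that were apart, where 14.9% of all genes were apart with GST-Ferry higher. TUBB (chr6:30720201-30725426, plus strand), the beta tubulin of most dividing cells, was the most abundant beta isotype, at 1217, 1165 and 1252 CPM with GST and 1841, 2406 and 2285 CPM with GST-Ferry. The GST libraries were close to each other and every GST-Ferry library was above them. The log2 fold change was 0.85 ± 0.21 and the adjusted p 0.0755 by edgeR. TUBB4B (chr9:137241213-137243707, plus strand), an isotype found in many tissues and in the axonemes of cilia, was at 266, 174 and 161 CPM with GST and 403, 413 and 434 CPM with GST-Ferry. GST 1 was high within its group, and the GST-Ferry libraries were nearly level. At 1.06 ± 0.22, TUBB4B had the largest log2 fold change of the beta isotypes, with an adjusted p of 0.0516 by edgeR. TUBB4B was called without GST 1 (1.30, adjusted p 0.0379 by edgeR) and without GST 3 (0.89, adjusted p 0.0165 by edgeR). Leaving out any remaining library gave no call, at log2 fold changes from 0.94 to 1.09. In those fits edgeR's adjusted p ran from 0.0767, with GST-Ferry 1 left out, to 0.425, with GST-Ferry 2 left out.

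TUBB6 (chr18:12307669-12344320, plus strand), a divergent beta isotype whose excess is known to destabilise microtubules, was at 48.9, 43.3 and 37.4 CPM with GST and 70.8, 97.9 and 77.0 CPM with GST-Ferry. The groups did not overlap, at a log2 fold change of 0.92 ± 0.21 and an adjusted p of 0.0608 by edgeR. TUBB6 overlaps AFG3L2, on the opposite strand, over 15377 bases. TUBB2B (chr6:3224261-3231730, minus strand), an isotype of the developing nervous system, was at 93.9, 89.0 and 83.1 CPM with GST and 121, 163 and 133 CPM with GST-Ferry. TUBB2A (chr6:3153669-3157526, minus strand), its near-identical neighbour, was at 13.1, 10.6 and 10.02 CPM with GST and 17.4, 23.5 and 17.8 CPM with GST-Ferry. Both pairs of groups were apart. The log2 fold changes were 0.65 ± 0.19 for TUBB2B and 0.79 ± 0.25 for TUBB2A, with adjusted p-values of 0.113 and 0.127 by edgeR. Counted as 1 gene, TUBB2A and TUBB2B together had 0.67 ± 0.19 and an adjusted p of 0.107 by edgeR.

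TUBB3 (chr16:89921392-89938761, plus strand), the neuronal beta isotype used as a marker of neurons, had few counts. It had 7, 12 and 5 counts in the GST libraries and 2, 2 and 1 in the GST-Ferry libraries, all of the latter under the floor of 3 counts. Relative to the library totals, the pooled 5 counts against 24 gave a ratio of GST-Ferry to GST of 0.502, with a 95% exact interval of 0.150 to 1.34 that covers counting error only. A difference in TUBB3 was not detectable at this depth. The readthrough gene AC092143.1 covers 14701 bases of TUBB3 on the same strand, and whether reads that match both were counted is not known here. The 6 beta isotypes summed to 1556 ± 78.9 CPM with GST against 2836 ± 340 CPM with GST-Ferry, 1.82-fold higher. Library by library the sum was 1640, 1483 and 1544 CPM with GST and 2455, 3105 and 2948 CPM with GST-Ferry, and the groups were apart.

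TUBG1 (chr17:42609676-42615234, plus strand), the main gamma tubulin gene, rose with GST-Ferry and had the largest fold change of the isotypes. It was at 84.5, 68.0 and 51.1 CPM in the GST libraries and 134, 205 and 161 CPM in the GST-Ferry libraries. The means were 67.9 ± 16.7 and 167 ± 35.8 CPM (SD, n = 3), and the lowest GST-Ferry library lay well above the highest GST library. The log2 fold change was 1.29 ± 0.24, at the 99.7th percentile of all genes, with an adjusted p of 0.0427 from the quasi-likelihood test of edgeR after Benjamini-Hochberg adjustment. The call was lost when single libraries were left out: edgeR's adjusted p was 0.103 without GST 2, 0.425 without GST-Ferry 2 and 0.410 without GST-Ferry 3, where the log2 fold change was 1.27, 1.08 and 1.29. TUBG1 overlaps RETREG3 over 948 bases on the other strand.

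TUBG2, the second gamma tubulin gene, shares 29.1% of the 50-base stretches of TUBG1. Its level was 38.1 ± 10.7 CPM in the GST and 34.4 ± 3.00 CPM in the GST-Ferry libraries (log2 fold change -0.16 ± 0.24, adjusted p 0.749 by edgeR), a direction that turned to 0.04 without GST 2. The ratio of TUBG1 to TUBG2 counts, which does not depend on scaling between libraries, was 2.194, 1.40 and 1.88 with GST and 4.32, 5.72 and 4.42 with GST-Ferry. TUBG1 counts came to 3.60%, 3.19% and 1.99% of the summed alpha and beta counts with GST and to 3.78%, 4.62% and 3.85% with GST-Ferry. Both ratios were higher in every GST-Ferry library. The ratio of alpha to beta counts was 0.429, 0.435 and 0.665 with GST, GST 3 being the high one, and 0.441, 0.428 and 0.420 with GST-Ferry, and its groups overlapped. These 3 ratios were chosen after the values were seen. Two-sided exact permutation tests gave p = 0.1, 0.1 and 0.4, or 0.15, 0.15 and 0.4 after Benjamini-Hochberg adjustment over the 3, and 0.1 is the smallest p that 3 libraries against 3 allow.

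**Figure D2:**
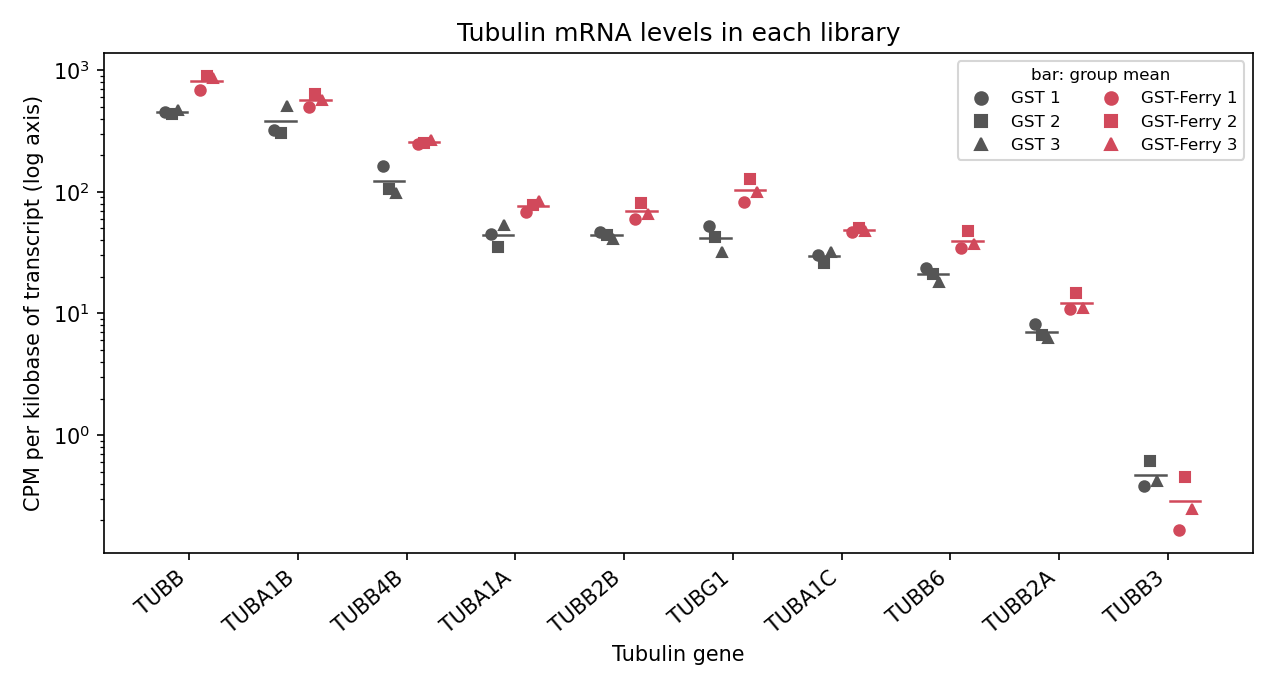
Level of each of the 10 tubulin isotypes in each library, as CPM per kilobase of transcript on a log axis, ordered by the GST mean. Grey symbols are the 3 GST libraries, red symbols the 3 GST-Ferry libraries, and short bars the group means. For every isotype but TUBA1B and TUBB3 all red symbols lie above all grey ones, and TUBB3 lies lowest with both baits. The levels are not corrected for sequence shared between genes.

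Levels of different genes were compared per length, as CPM per kilobase of the representative transcript. They were not corrected for sequence shared between genes. If reads matching several genes were dropped, genes with few 50-base stretches of their own would read too low. The places of TUBA1B (12.9%), TUBB2A (34.5%) and TUBB3 (10.6%) in the order are therefore uncertain. With GST, TUBB was highest (454 ± 16.3, SD, n = 3), followed by TUBA1B (380 ± 112), and the libraries of these neighbours overlapped. TUBB4B came next at 122 ± 34.9, apart from both sides. TUBA1A (44.5 ± 9.20), TUBB2B (43.9 ± 2.68), TUBG1 (42.1 ± 10.4) and TUBA1C (29.4 ± 3.13) followed, each overlapping its neighbour in this order. TUBB6 (20.9 ± 2.78), TUBB2A (7.04 ± 1.04) and TUBB3 (0.473 ± 0.127) were each apart from the isotype above. With GST-Ferry the order began in the same way, with TUBB at 816 ± 111, TUBA1B at 568 ± 67.0 and TUBB4B at 255 ± 9.75, now without overlap between them. TUBG1 came next at 103 ± 22.2, overlapping TUBA1A at 76.8 ± 7.53, which overlapped TUBB2B at 69.0 ± 10.8. TUBA1C at 48.3 ± 1.86 overlapped TUBB6 at 39.7 ± 6.87, and TUBB2A at 12.3 ± 2.12 and TUBB3 at 0.287 ± 0.147 came last.

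The makeup of each class, which scaling between libraries cannot move, was compared as shares of the summed counts of its isotypes described here. Other genes of the class, such as TUBA4A and TUBB4A, are not in these sums. The shares also depend on how reads matching several isotypes were divided or dropped, which is not known here. TUBA1B made up 77.7% ± 2.85 (SD, n = 3) of the summed alpha counts with GST and 75.9% ± 1.30 with GST-Ferry, TUBA1A 10.9% ± 1.18 and 12.1% ± 0.843, and TUBA1C 11.4% ± 1.82 and 11.96% ± 0.831. TUBB made up 78.0% ± 3.45 of the summed beta counts with GST and 76.7% ± 1.44 with GST-Ferry, and TUBB4B 12.8% ± 3.03 and 14.8% ± 1.56. TUBB6 held 2.77% ± 0.306 and 2.88% ± 0.270, and TUBB2A 0.721% ± 0.0761 and 0.690% ± 0.0773. The share of TUBB2B was 5.73%, 6.002% and 5.38% in the GST libraries and 4.95%, 5.27% and 4.51% in the GST-Ferry libraries, lower in every one. TUBB3, at 0.0543% and 0.0174% on average, was also lower in every GST-Ferry library, on the few counts given above. In two-sided exact permutation tests of the 9 shares, TUBB2B and TUBB3 reached p = 0.1, the smallest that 3 against 3 allow, and 0.45 after Benjamini-Hochberg adjustment over the 9. The other 7 had p from 0.3 to 0.8. Since 3 against 3 cannot reach 0.05 in an exact permutation test, unequal movement of the isotypes was not detectable by this test.

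**Figure D3:**
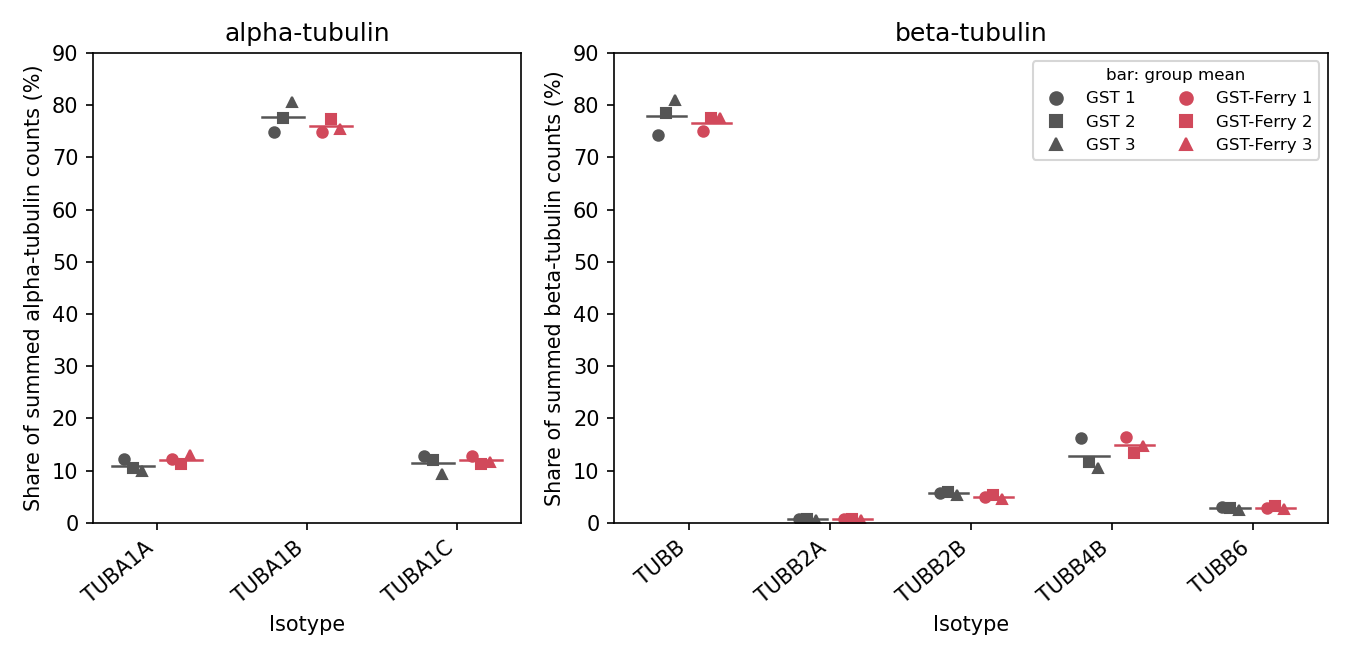
Share of each isotype in the summed counts of the isotypes of its class described here, in each library. The 3 alpha isotypes are on the left and 5 beta isotypes on the right (TUBB3 left out of the plot). Grey symbols are GST libraries, red symbols GST-Ferry libraries and bars the group means. TUBA1B and TUBB hold most of these sums with both baits, with group means from 75.9% to 78.0%. Of the plotted isotypes only TUBB2B has all red symbols below all grey ones.

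The tested isotypes also followed each other over the libraries. Over the 6 libraries, Pearson's r of log2 CPM had a median of 0.907 over the 36 pairs of tested isotypes, from 0.601 (TUBA1B with TUBB4B) to 0.995 (TUBG1 with TUBB6). This is a description of 6 libraries that include the difference between the baits. Among 5278 other genes at 50 CPM or more on average, 430 had an r over 0.9 to the mean log2 CPM of the isotypes, so such a pattern was common. The 3 highest were CCT5, a subunit of the chaperonin that folds tubulin (r 0.996), TSEN34, a subunit of the tRNA splicing endonuclease (r 0.996), and CBX1, a heterochromatin protein (r 0.995). CCT5 and TSEN34 rose (log2 fold changes 1.21 and 1.34, adjusted p 0.0420 and 0.0397 by edgeR), and CBX1 had 0.51 with an adjusted p of 0.171.

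Other tubulin genes did not share one direction. Of 12, 5 were tested, 2 had a log2 fold change above 0 and 3 below, their median was -0.16, and edgeR and limma-voom called 0. TUBB4A, a brain beta isotype close to TUBB4B, was at 25.1 ± 7.62 CPM with GST against 49.4 ± 8.83 CPM with GST-Ferry, with groups apart (0.96 ± 0.25, adjusted p 0.0876 by edgeR). DESeq2 called TUBB4A enriched and no other gene of the 12. TUBE1, the epsilon tubulin of centrioles, was the most abundant of the 5 over both baits together, though TUBB4A was higher with GST-Ferry. TUBE1 was lower in every GST-Ferry library (38.0, 58.6 and 87.9 against 32.2, 36.2 and 33.5 CPM), with -0.86 ± 0.28 and an adjusted p of 0.133 by edgeR. GST 3 was the highest library, and without it the log2 fold change was -0.54 (adjusted p 0.0924 by edgeR), while edgeR with no filter on low counts called TUBE1 depleted (adjusted p 0.0144). TUBB4A and TUBE1 were the 2 genes of the list with an unadjusted p under 0.05, where 1755 of all 15546 genes were higher and 1251 lower. TUBD1, the delta tubulin, had -0.24 ± 0.21 (adjusted p 0.544), and TUBA4A, at 1.71 CPM with GST and 2.68 with GST-Ferry, had 0.65 ± 0.41 (adjusted p 0.404, all by edgeR). Tubulin pseudogenes carried little: of 40, 14 had a count, with 295 counts in all against 113641 for the 10 isotypes. The most abundant, TUBBP5, had 138 counts and was the only one tested (log2 fold change 0.11, adjusted p 0.896 by edgeR). With pseudogenes added, the log2 ratio of the class sums was 0.62 for alpha and 0.86 for beta, against 0.62 and 0.87 without.

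Of the folding machinery, 1 chaperonin subunit rose. All 8 subunits of the chaperonin TRiC were above 0 on the log2 scale (median 0.38), and 1 was called. CCT5 rose from 465, 387 and 418 CPM in the GST libraries to 789, 1212 and 944 CPM in the GST-Ferry libraries (1.21 ± 0.22, adjusted p 0.0420 by edgeR). That call too was lost without GST 2, GST-Ferry 2 or GST-Ferry 3 (adjusted p 0.113, 0.425 and 0.410 by edgeR). DESeq2 called 2 of the 8 and limma-voom 0, and the second gene with an unadjusted p under 0.05 was CCT7 (0.66 ± 0.19, adjusted p 0.106 by edgeR). Of the 13 tubulin folding cofactors and prefoldin subunits, 8 were above 0 and 5 below, with a median of 0.14, and edgeR and limma-voom called 0. The most abundant, TBCD, which helps assemble the tubulin heterodimer, was at 210 ± 48.4 and 256 ± 35.6 CPM (0.28 ± 0.22, adjusted p 0.505 by edgeR). At an unadjusted p under 0.05, TBCB, ARL2 and PFDN2 were higher (0.73, 1.05 and 0.79) and PFDN4 lower (-0.89). Over all 15546 genes, 1755 were higher and 1251 lower at that level. DESeq2 called 1 gene of the 13 enriched and 1 depleted.

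For the factors of tubulin autoregulation edgeR made no call with all 6 libraries. Of 12 (TTC5, SCAPER and 10 subunits of the CCR4-NOT deadenylase), 3 were above 0 and 9 below, the median was -0.23, and edgeR, DESeq2 and limma-voom called 0. The most abundant, the scaffold CNOT1, was at 467 ± 80.9 and 443 ± 20.2 CPM (-0.08 ± 0.20, adjusted p 0.861 by edgeR). Under an unadjusted p of 0.05 were SCAPER, at -0.53, and CNOT11, at 0.53, where 1755 of all 15546 genes were higher and 1251 lower. Without GST 3, edgeR called 1 of the 12 depleted, against 558 of 15765 genes in that fit. Without GST 3 and GST-Ferry 1 it called 1 enriched and 1 depleted, against 1754 and 992 of 15242 genes. Of 10 partners of TUBG1 in the gamma-tubulin ring complex, 6 were above 0 and 4 below, with a median of 0.06. With all 6 libraries and the filter on low counts, the same 3 tools called 0. EdgeR with no filter called 1 depleted. Limma-voom with library weights called 4 enriched, against 1621 of 15546 genes. Without GST 3 and GST-Ferry 1, edgeR called 4 enriched, against 11.5% of all genes in that fit. TUBGCP6, the most abundant, had -0.11 ± 0.25 (adjusted p 0.846 by edgeR), and TUBGCP2, MZT2A and MZT2B, at 0.61, 0.67 and 0.63, had an unadjusted p under 0.05.

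Enzymes that modify tubulin and proteins that bind microtubules gave no call by edgeR with all 6 libraries and the main settings. Of 18 modifying enzymes 17 were tested, with 7 above 0 and 10 below and a median of -0.09. EdgeR and limma-voom called 0, and DESeq2 called 1 enriched. The most abundant over both baits together, TTLL12, a ligase-like protein, was at 108 ± 22.9 CPM with GST against 185 ± 24.0 CPM with GST-Ferry (0.77 ± 0.21, adjusted p 0.0957 by edgeR). SIRT2 (0.48) and AGBL3 (-0.66) also had an unadjusted p under 0.05. Of 31 microtubule-associated proteins 30 were tested, with 20 above 0 and 10 below and a median of 0.10. EdgeR and limma-voom called 0 of them, and DESeq2 called 1 enriched. With all 6 libraries edgeR called 1 enriched under no filter on low counts or a filter of 1 CPM in 3 libraries (421 and 105 genes enriched). So it did with the replicate block or with offsets for GC content and length (167 and 266 genes enriched). It also called 1 without GST 1 or without GST 3 (62 and 701 genes enriched). Without GST 3 and GST-Ferry 1 it called 6, against 11.5% of all genes in that fit. CKAP5, a microtubule polymerase and the most abundant over both baits together, had 0.08 ± 0.19 (adjusted p 0.849 by edgeR). MAP1S (1.24, adjusted p 0.0507 by edgeR), MAPT (0.47), STMN3 (0.77), CAMSAP3 (0.89) and CLASP2 (-0.46) had an unadjusted p under 0.05. At that level 1755 of all 15546 genes were higher and 1251 lower, so such genes were common outside these lists too. Genes given only by an unadjusted p in these lists were chosen after their values were seen.

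The GST-Ferry libraries also differed from the GST libraries along GC content. The isotypes' transcripts lie above the median GC content and below the median length of tested protein-coding genes, by unequal amounts. The 3 alpha isotypes and TUBB were at the 57.9th to 60.2nd percentile of GC content, and the others at the 73.9th to 90.6th. Over the 12859 tested protein-coding genes the log2 fold change correlated across genes with GC content (Spearman's rho 0.587) and with transcript length (-0.263), a description with no test, since genes are not independent replicates. The median log2 fold change was -0.38 in the tenth of genes lowest in GC and 0.43 in the tenth highest. The isotypes' representative transcripts span 1595 to 3001 bases and 51.6% to 62.6% GC, against medians of 3290 bases and 48.9% for all of these genes. The upper GC limit is that of TUBB3, which was not tested, and the highest of the 9 tested isotypes is TUBB6 at 59.5%. For the 1584 other genes within both ranges the median log2 fold change was 0.28, and 75.5% of them were above 0. With an offset for GC content and length in the fit, the isotypes' median was 0.64 and 9 of 9 were above 0. In that fit 8 were higher at an unadjusted p under 0.05, against 11.8% of all genes, and TUBG1 was the 1 called (1.07, adjusted p 0.0246 by edgeR), against 1.71% of all genes enriched. The 4 nuclear-retained noncoding RNAs had a median of -0.19, with 3 of 4 below 0 and 0 called by edgeR or limma-voom. The most abundant, MALAT1, was at 10838 ± 154 CPM with GST against 7112 ± 672 CPM with GST-Ferry (-0.61 ± 0.23, adjusted p 0.182 by edgeR). MALAT1 alone of the 4 had an unadjusted p under 0.05, where 1251 of all 15546 genes were lower. DESeq2 called 1 of the 4 depleted. The part of nuclear RNA in the tubulin values was not tested. With all libraries thinned to equal depth, the isotypes' median was 0.77 and all 9 were above 0. In that fit edgeR called TUBG1 (1.28, adjusted p 0.0343) and TUBB4B (1.09, adjusted p 0.0381), against 156 of 12952 genes enriched.

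**Figure D4:**
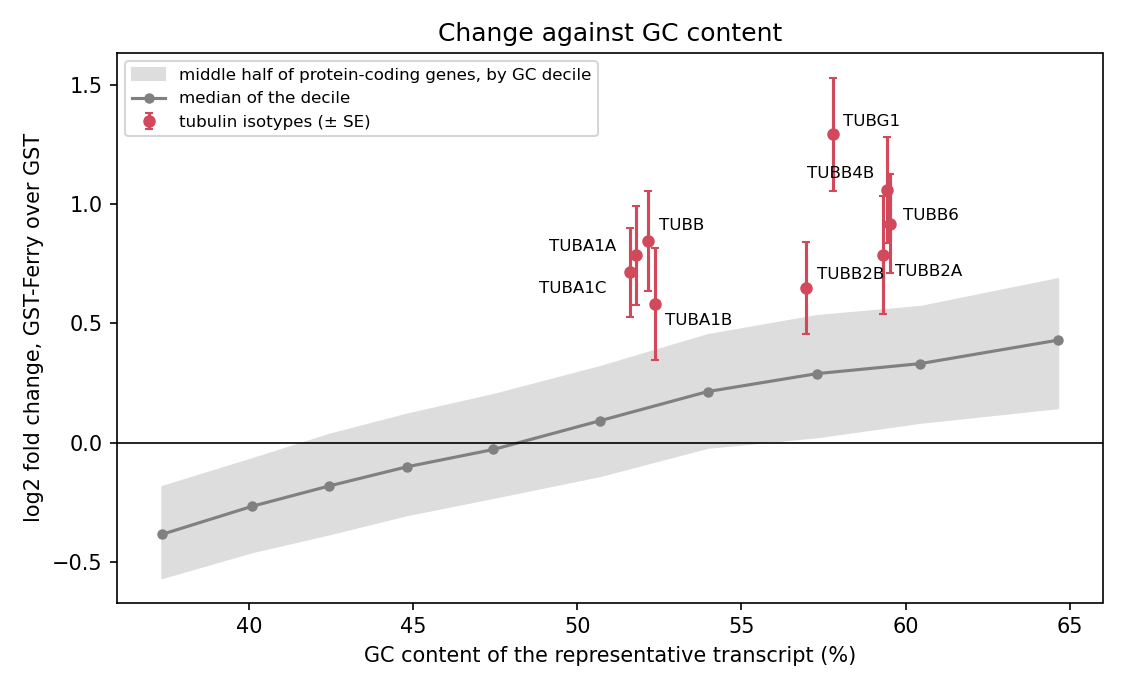
Log2 fold change of GST-Ferry over GST (y axis) against GC content of the representative transcript in percent (x axis). The grey line joins the medians of 10 equal groups of tested protein-coding genes by GC content, the grey band spans the middle 50% of each, and red points with bars of ± 1 SE are the 9 tested isotypes. The grey medians climb from -0.38 to 0.43, and every red point lies above the band.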

How the data were processed

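The members and gene lists were chosen with earlier results of these data known. The authors deposited raw read counts per gene for the 6 libraries. The submitters' processing notes name STAR 2.5.2b, bcl2fastq 2.19.1 and the build GRCh38.p13. How reads were assigned to genes (program, annotation release, use of strand, reads matching several places) is not given in the sources used here. Libraries were rRNA-depleted and strand-specific, per the labels' protocols. The column names say only control or sample and a number; reading them as GST and GST-Ferry with the same numbers is an assumption.

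Symbols (58575 of 60676 IDs), coordinates and transcripts were taken from GENCODE release 29, with a gene name table, and where IDs shared a symbol the one with most counts kept it. Genes were filtered with filterByExpr (minimum count 10, total 15), scaled with TMM factors and tested with edgeR 4.0.16 (R 4.3.3), quasi-likelihood, two-sided, without covariates, with Benjamini-Hochberg adjustment. CPM use TMM-scaled totals of filtered counts. SE comes from the fit. The procedure was tested on simulated data. DESeq2 1.42.0 and limma-voom (limma 3.58.1) were alternatives, with those of the closing section.

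Named were all isotypes, the called and the most abundant gene of each list (other tubulins, folding cofactors with prefoldin, TRiC, autoregulation, gamma-tubulin ring complex, modifying enzymes, microtubule-associated proteins, bait subunits, nuclear noncoding RNAs, HEK 293 and other cell type markers), the most abundant pseudogene, and the 3 genes most correlated with the isotypes' mean.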

Additional observations from a re-analysis of the deposited data

How the results depend on the processing

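The isotypes' median log2 fold change stayed between 0.64 and 0.93 in 20 alternatives, and all tested isotypes were above 0 in each except the fit with no filter on low counts, where TUBB3 fell below 0 and 9 of 10 were above. The counts of calls moved, and the cause was not tested. Against 92 genes enriched, 5 depleted and 1 isotype enriched, RLE size factors gave 11, 0 and 0; library sizes alone 7, 0 and 0; no filter 421, 323 and 5; DESeq2 524, 177 and 6; limma-voom 14, 0 and 0; limma-voom with library weights 1621, 927 and 9; counts thinned to equal depth 156, 24 and 2; and GST 3 with GST-Ferry 1 left out 1754, 992 and 9. Offsets for GC content and length gave 266 enriched and 45 depleted. At a threshold of 0.01 edgeR called 0, 0 and 0, where an unadjusted p under 0.05 was reached by 1755 genes with higher and 1251 with lower values.

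Leaving out 1 library gave 0 to 701 genes enriched, 0 to 558 depleted and 0 to 8 isotypes enriched. The isotype counts were 2 without GST 1, 0 without GST 2, 8 without GST 3, 1 without GST-Ferry 1, and 0 without GST-Ferry 2 or GST-Ferry 3, where 6 and 8 isotypes were higher at an unadjusted p under 0.05, against 910 of 16307 and 881 of 16312 genes. A fit that left an arm with fewer libraries took its spread from the rest. Over the 20 alternatives the enriched count reached 7 for TRiC, 6 for microtubule-associated proteins and 4 for the gamma-tubulin ring complex. It reached 3 for folding cofactors, 2 for autoregulation and for modifying enzymes, and 1 for other tubulin genes. Apart from other tubulin genes, these highest counts came from fits with many calls over all genes. Those were GST 3 with GST-Ferry 1 left out (1754 of 15242 genes enriched) and limma-voom with library weights (1621 of 15546). The depleted count reached at most 1 in any of the lists. TUBG1 ranged from 1.07 to 1.46 with adjusted p from 5.5e-05 to 0.425, and its call was lost in 7 of 20 alternatives. The log2 fold change of TUBG2, with 1 library left out, ran from -0.38 (without GST 3) to 0.036 (without GST 2). Leaving out 1 library also turned differences in class share (percentage points): TUBA1C ran from -0.518 (without GST 3) to 1.21, TUBB from -3.13 to 0.274 (without GST 3), and TUBB2A from -0.0664 to 0.0120 (without GST-Ferry 3), also turning without GST 1 at 0.00933. TUBB6 turned without GST 3 at -0.0674 and without GST-Ferry 2 at -0.0263.

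With the replicate block, 167 genes were enriched, 28 depleted and 2 isotypes enriched. The labels do not say whether the replicate numbers pair the libraries. Deviations of same-numbered libraries correlated at 0.24, 0.08 and -0.15, and those of differently numbered libraries from -0.27 to 0.20. With so few libraries these values do not settle the pairing. TUBB3 is limited by its few counts and by sequence shared with AC092143.1.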
